A study of Mus musculus with 20 samples.

Results

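Glycine codon sites were followed in ribosome footprints from mouse hippocampus. They are the codons GGA, GGC, GGG and GGT, which made up 4 of the 61 sense codon rows in each table of codon enrichment and 40597 of the 586153 codon sites listed with at least 1 footprint in any library. The listed glycine sites were 12558 of GGA, 12388 of GGC, 9487 of GGG and 6164 of GGT, and a single library listed between 12399 and 22924 of them. The members were chosen by the codon alone and no measured value entered the choice.

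The study compared Qtrt1-/- mice with wild-type mice. Qtrt1 encodes the subunit with the active site of tRNA-guanine transglycosylase, an enzyme that exchanges the guanine at the first anticodon position of 4 tRNA families (those of tyrosine, histidine, asparagine and aspartate) for the modified base queuine, giving queuosine. Ribosome-protected fragments (RNase I footprints) were sequenced from 10 animals, and each animal also gave 1 library of input RNA. The groups were 3 wild-type and 3 Qtrt1-/- females aged 6 months and 21 days, except for 1 wild-type female of 6 months and 22 days, and 2 wild-type and 2 Qtrt1-/- males. In each male genotype replicate 1 was aged 6 months and 18 days and replicate 2 was aged 5 months and 16 days, so that age and sex differed together. The labels name no strain, allele or Cre driver, and the tissue was lysed in the presence of cycloheximide, a translation elongation inhibitor. Libraries of 1 group came from separate animals.

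The codon tables held 1071976 to 3032432 footprints per library and the gene counts held 5357812 to 15517982. Qtrt1 itself had 40, 28 and 30 footprints in the wild-type females and 5, 1 and 4 in the Qtrt1-/- females, and 94 and 46 against 10 and 3 in the males, so that every library matched the genotype of its label. In input RNA the Qtrt1 counts were 88, 88 and 74 against 28, 24 and 28 in females, and 78 and 66 against 29 and 24 in males. All 8 markers of hippocampal fields were present in all footprint libraries, at a summed footprint level of 721 to 1307 CPM (counts scaled to library size). Their sum was 721 to 1076 in wild-type females and 1092 to 1183 in Qtrt1-/- females, ranges that did not overlap. In males it was 1069 to 1147 in the wild type and 1142 to 1307 in Qtrt1-/- animals. Markers of choroid plexus, the secretory epithelium of the ventricles, also varied: their 8 markers summed to 148 to 5985 CPM in wild-type females, 2207 to 9328 in Qtrt1-/- females and 8711 to 13280 in males, and the 8 striatal markers to 378 to 982, 153 to 483 and 145 to 207. No gene of any marker list was at 0. These marker levels are footprints and not input RNA. In whole tissue, fewer cells of a type, less RNA per cell and less translation of that RNA cannot be told apart in them.

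Glycine is decoded in mammals by 3 tRNA isoacceptors. The tRNA with anticodon GCC reads GGC by a Watson-Crick pair and GGT by a wobble pair, the tRNA with anticodon UCC carries a modified wobble uridine and reads GGA and GGG, and the tRNA with anticodon CCC reads GGG. None of them carries queuosine, so glycine codons are not direct targets of the enzyme that Qtrt1 encodes. Glycine has the smallest side chain of all amino acids, and like proline it is known for making peptide bonds slowly in some contexts, which the hypusine-bearing factor eIF5A helps to relieve.

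The sites with most footprints show what a glycine codon site is. Each is printed below as 21 bases of coding sequence around the listed codon, which stands in capitals, and codon positions are counted from 0 at the start codon. These sites were chosen after their values were seen, as those with most footprints for their codon.
Cpe codon 324: gtccccggtGGAatgcaagac
Cpe codon 311: tttgtagatGGAacgaccaat
Gpm6a codon 86: gtgatctatGGCattgcggct
Cpe codon 396: tctgtggacGGGatagaccat
Gpm6a codon 180: cgtcagtttGGGattgtgaca
Ccn3 codon 145: ctactgccgGGTcctgactgc
Eef1a2 codon 197: ggctggcatGGTgacaacatg
In the GENCODE M21 annotation of GRCm38, Cpe codon 324 spans the junction of exons 5 and 6 of 9 on the minus strand (chr8:64606741-64609048), Gpm6a codon 86 lies in exon 3 of 7 on the plus strand (chr8:55047263-55047265), Cpe codon 396 in exon 7 of 9 (chr8:64597482-64597484), and Ccn3 codon 145 in exon 3 of 5 (chr15:54747906-54747908). All are coding. Cpe encodes carboxypeptidase E, a peptide-processing enzyme of secretory granules, Gpm6a a neuronal membrane glycoprotein, Ccn3 a secreted matricellular protein and Eef1a2 an elongation factor that brings aminoacyl-tRNA to the ribosome.

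Most glycine sites were thinly covered. The median listed glycine site held 2 footprints in every library, and 39.1% to 47.2% of listed glycine sites held 1. At the other end Gpm6a codon 86 held 30032 footprints over the 10 libraries. It took 6.01% to 6.98% of all GGC footprints in wild-type females, 10.3% to 11.3% in Qtrt1-/- females, 8.57% to 9.84% in wild-type males and 9.45% to 15.8% in Qtrt1-/- males. Relative to its own mRNA, its occupancy in females differed by 0.30 on the log2 scale, with an adjusted p of 0.525 (limma).

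The enrichment tables give, for each codon and each position from -90 to 90, a ratio to an even spread of footprints along the mRNA, where 1 is no enrichment. Recomputing the ratio from the site tables gave the deposited glycine values to within 0.876% at position 0 and 0.482% at position 1, and settled what the positions stand for. Position 0 is the codon that the site tables list for a footprint, and position 1 is the codon 1 upstream of it. The spread of log2 enrichment across the 61 codons was widest at position 1 (SD 0.873) and next at position 0 (SD 0.576).

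At position 1, glycine codons stood among the most enriched of all. GGA ranked 1st of 61 codons in each of the 10 libraries, and over their mean GGT ranked 3rd, GGG 8th and GGC 9th. As an amino acid, glycine ranked 2nd after aspartate. GGA ratios were 3.23, 3.39 and 3.05 in wild-type females, 2.87, 3.03 and 2.90 in Qtrt1-/- females, 3.14 and 4.04 in wild-type males, and 3.6 and 3.29 in Qtrt1-/- males. GGT ratios were 2.37, 2.39 and 2.20, then 1.99, 2.11 and 2.09, then 2.00 and 2.34, then 2.14 and 2.10, in the same order of groups. For every glycine codon the female knockout libraries all lay below the female wild-type libraries, and in males the genotypes overlapped. Of all 61 codons 24 had a lower mean in Qtrt1-/- females, among them all 8 made of G and C bases only. How many of the 61 codons were separated without overlap was not counted. GGG ratios were 2.06, 1.93 and 1.74 in wild-type females, 1.43, 1.51 and 1.58 in Qtrt1-/- females, 1.59 and 1.94 in wild-type males, and 1.83 and 1.59 in Qtrt1-/- males. GGC ratios were 1.83, 1.75 and 1.67, then 1.45, 1.41 and 1.54, then 1.61 and 2.11, then 1.79 and 1.65. All of these values were above 1, the lowest being GGC in a Qtrt1-/- female.

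**Figure D1:**
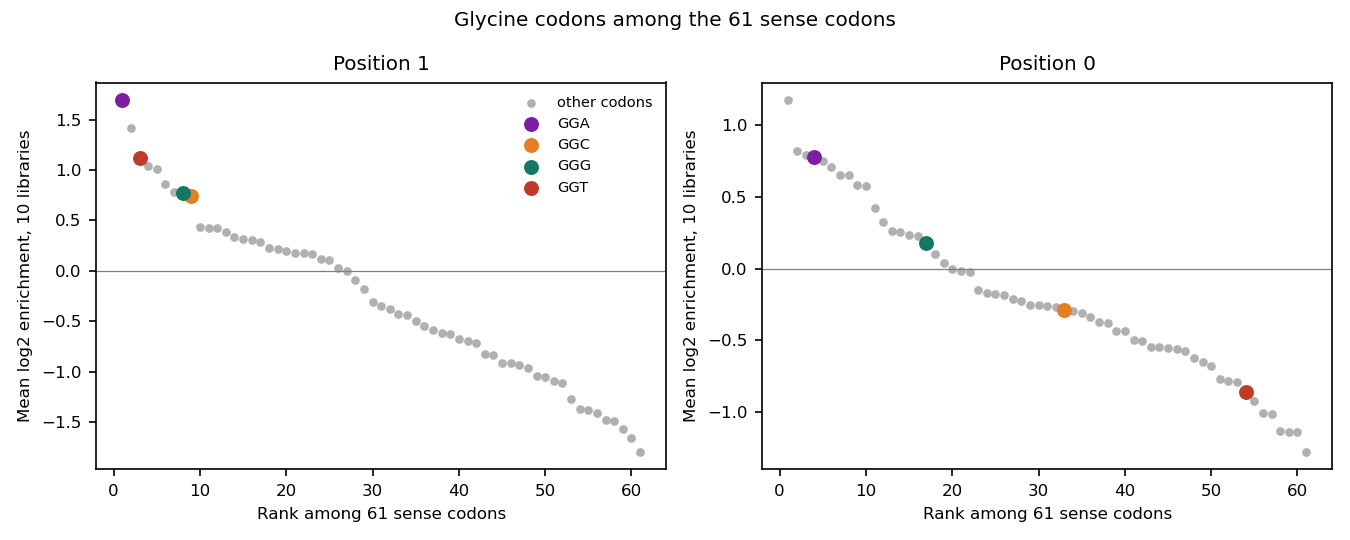
The 61 sense codons ordered by mean log2 enrichment over the 10 libraries (y axis) against rank (x axis), at position 1 on the left and position 0 on the right, with the glycine codons in colour. At position 1 the 4 glycine codons rank 1st, 3rd, 8th and 9th, and at position 0 they spread from 4th to 54th.

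Except for GGC and GGG, the 4 synonymous codons differed from each other at position 1 by more than the spread between libraries. Within libraries GGA exceeded GGC 1.94-fold (log2 difference 0.96 ± 0.03, SE, n = 10), GGG 1.92-fold and GGT 1.52-fold. GGT exceeded GGC and GGG, which stood at 0.78-fold and 0.79-fold of it. GGC and GGG could not be separated, with a log2 difference of -0.02, a 95% confidence interval of -0.07 to 0.03 and an adjusted p of 0.451 (limma, adjusted over 87 synonymous pairs). Of the 6 glycine pairs 5 passed the test, against 93.1% of all 87 synonymous pairs, so that differing was the rule among synonymous codons at this position.

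A codon was called where its p, adjusted over all 61 codons, was under 0.05. The genotype comparison at position 1 called none of the 4 glycine codons in females, where 9.84% of the 61 codons were called (3.28% lower). The log2 differences of Qtrt1-/- from wild-type females were -0.13 ± 0.09 for GGA (SE, adjusted p = 0.261, limma), -0.26 ± 0.10 for GGC (0.101), -0.34 ± 0.10 for GGG (0.0653) and -0.17 ± 0.07 for GGT (0.101). At an unadjusted threshold of 0.05, 3 of the 4 passed. With females fitted alone, 3 passed after adjustment (GGC, GGG and GGT), and leaving out wild-type female 3, wild-type male 1 or wild-type male 2 also brought calls, up to 3. In males the differences ran from -0.10 to -0.03 with adjusted p of 0.901, and 0 of 4 passed unadjusted, where 3.28% of codons were called. Over both sexes 0 of 4 were called and 2 passed unadjusted, where 6.56% of codons were called, and without wild-type male 1 all 4 were called. The difference between the sexes was called for no codon (lowest adjusted p over glycine 0.697).

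Among the 6 glycine pairs, 1 changed with genotype in females at position 1, where 23% of synonymous pairs were called. The lead of GGA over GGG was larger in Qtrt1-/- females by 0.20 ± 0.07 on the log2 scale (SE, adjusted p = 0.0314, limma). The call was lost without wild-type female 1 or 2 or Qtrt1-/- female 1 or 2, with adjusted p of 0.0729 to 0.218, and without either Qtrt1-/- male 2 pairs were called. In males and over both sexes 0 of 6 pairs were called (limma, 0 unadjusted in each), where 0% and 13.8% of pairs were called.

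**Figure D2:**
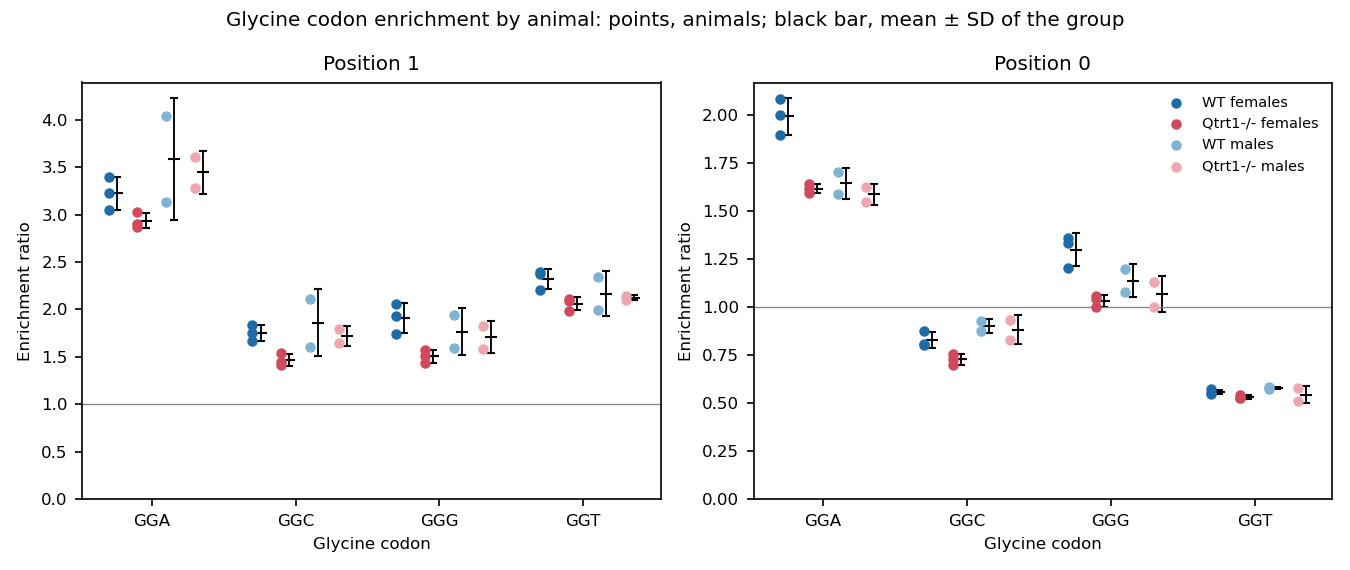
Enrichment ratio (y axis) of each glycine codon (x axis) in each animal, at position 1 on the left and position 0 on the right, coloured by genotype and sex, with black bars for the group mean ± SD (n = 3 females or 2 males a group) and a line at 1. At position 0 the points of Qtrt1-/- females lie below all wild-type females for each glycine codon, while those of males overlap. Such separation was not counted for other codons.

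At position 0, the codon that the site tables list, the same 4 codons were spread over the whole range of enrichment. GGA ranked 4th of 61, GGG 17th, GGC 33rd and GGT 54th. GGA ratios were 2.00, 2.09 and 1.89 in wild-type females, 1.59, 1.62 and 1.64 in Qtrt1-/- females, 1.59 and 1.70 in wild-type males, and 1.63 and 1.55 in Qtrt1-/- males. GGG ratios were 1.36, 1.33 and 1.2, then 0.999, 1.04 and 1.06, then 1.08 and 1.2, then 1.13 and 1.00. Both codons, the ones that the UCC tRNA reads, had their highest group means in wild-type females. GGC ratios were 0.800, 0.808 and 0.875 in wild-type females, 0.731, 0.696 and 0.755 in Qtrt1-/- females, 0.876 and 0.926 in wild-type males, and 0.934 and 0.830 in Qtrt1-/- males. GGT ratios were 0.571, 0.549 and 0.551, then 0.526, 0.525 and 0.544, then 0.581 and 0.575, then 0.576 and 0.511. The codons of the GCC tRNA were thus below 1 in all libraries at position 0, and above 1 in all libraries at position 1.

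All 6 glycine pairs differed in level at position 0, where 85.1% of the 87 synonymous pairs did. GGA exceeded GGT 3.08-fold (log2 difference 1.62), the 2nd largest difference of the 87 pairs. GGA exceeded GGC by 1.03, GGG exceeded GGT by 1.03, and GGA exceeded GGG by 0.59. GGC exceeded GGT by 0.59, although 1 tRNA reads both. The order of GGC and GGT was the reverse of that at position 1. No glycine pair was called between genotypes at position 0 in either sex or over both (limma, 2, 0 and 1 of 6 unadjusted in females, males and both), where 0% of pairs were called, but up to 2 were called in females without wild-type female 3 or either wild-type male.

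In Qtrt1-/- females GGA and GGG fell at position 0. GGA dropped by 0.30 ± 0.05 on the log2 scale (SE, adjusted p = 0.0124, limma) and GGG dropped by 0.33 ± 0.07 (adjusted p = 0.0255), in 3 of 3 knockout libraries below all wild-type libraries. GGC differed by -0.19 ± 0.06 (adjusted p = 0.0776) and GGT by -0.07 ± 0.05 (adjusted p = 0.389). For GGC and GGT, too, the knockout libraries all lay below the wild-type libraries, so this separation was not particular to GGA and GGG. The number of the 61 codons separated in this way was not counted. In all, 11.5% of the 61 codons were called in females (6.56% lower). Both calls were lost without wild-type female 1 or 2 or Qtrt1-/- female 1 or 2, with adjusted p of 0.0752 to 0.0960 for GGA and 0.0966 to 0.147 for GGG.

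Males did not show a called change at position 0. The male differences ran from -0.09 to -0.03 with adjusted p of 0.823 to 0.894 (limma), 0 of 4 passed unadjusted, and 0% of codons were called. Over both sexes GGA dropped by 0.18 ± 0.04 and GGG by 0.21 ± 0.06 (adjusted p = 0.0486 for each), where 8.2% of codons were called. These 2 calls were lost on leaving out any of 7 animals (wild-type females 1 and 2, the 3 Qtrt1-/- females, wild-type male 2 or Qtrt1-/- male 2), with adjusted p of 0.0555 to 0.259. The female and male differences of GGA were 0.25 apart, in the direction of a larger drop in females, with an unadjusted p of 0.0138 and an adjusted p of 0.590, so that the sexes were not shown to differ.

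**Figure D3:**
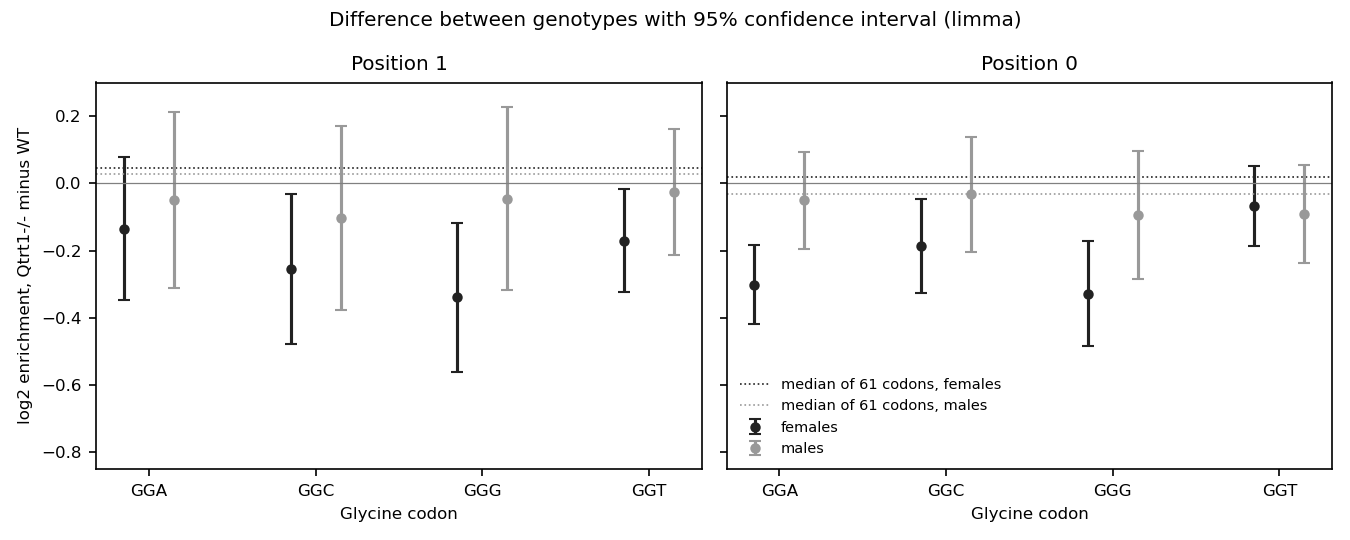
Log2 enrichment of Qtrt1-/- minus wild type (y axis) for each glycine codon (x axis) at position 1 on the left and position 0 on the right, in females (black) and males (grey), with 95% confidence intervals from limma and dotted lines at the median of the 61 codons. The female intervals lie below 0 for GGC, GGG and GGT at position 1 and for GGA, GGC and GGG at position 0, and the male intervals all span 0.

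Other values moved with the female drop. The difference between genotypes followed the number of G and C bases in a codon: at position 0 all 8 codons with 3 such bases were lower in Qtrt1-/- females (median log2 difference -0.21) and all 7 codons with none were higher (median 0.15). Over the 61 codons Pearson's r between the number of G and C bases and the difference was -0.78 in females and -0.64 in males, a description of codons that share the same libraries. With the number of G and C bases taken out, the female differences were -0.24 for GGA (adjusted p = 0.0371, limma) and -0.12 for GGG (adjusted p = 0.364). GCG and GCC, alanine codons, were the other codons called lower in females, at -0.31 and -0.21. With each mRNA weighted equally the female drop was -0.18 for GGA (adjusted p = 0.0630) and -0.48 for GGG (adjusted p = 0.00247). Without the 20 mRNAs with most footprints it was -0.18 for GGA (adjusted p = 0.0429) and -0.39 for GGG (adjusted p = 0.00363).

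**Figure D4:**
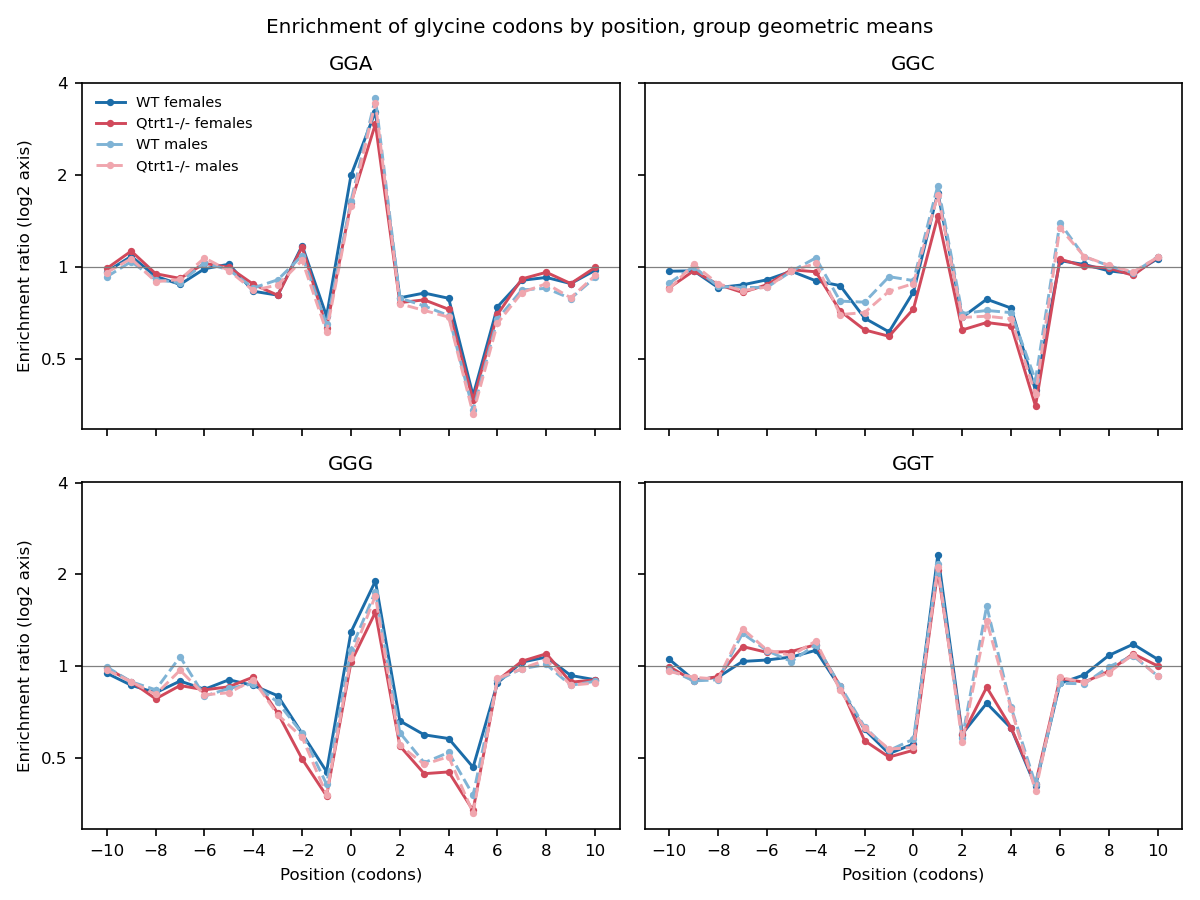
Enrichment ratio on a log2 axis (y) against position in codons from -10 to 10 (x), 1 panel per glycine codon, as the geometric mean of each group. All 4 codons peak at position 1 and have a trough at position 5, and GGA and GGG are also above 1 at position 0. The male group means stand above the female ones for GGT at position 3 and GGC at position -1.

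Away from the listed codon and its upstream neighbour, glycine codons were depleted at some positions and enriched at others. At position 5, which is 5 codons upstream of the listed one, the mean ratios were 0.353 for GGA, 0.375 for GGG, 0.387 for GGC and 0.405 for GGT, and these were the 4 lowest of the 61 codons. GGG was also the lowest of all codons at position -1 (0.404), position 3 (0.498) and position 4 (0.513). Ratios above 1 were found for GGT at position -7 (1.2, 3rd of 61) and position 9 (1.11, 8th), for GGC at position 6 (1.2, 7th) and for GGA at position -2 (1.12, 17th), among others. Beyond 10 codons on either side the mean ratios of the 4 codons lay between 0.777 and 1.51. Between position -10 and 10 the profiles of GGC and GGG (Pearson r = 0.85 over 21 positions) and of GGC and GGT (0.85) were the most alike, and those of GGA and GGT the least (0.60). Outside glycine, the profile of GGA was most like those of GAT (0.85) and GAA (0.81), and that of GGG most like GAG (0.76) and GAA (0.70). The profile of GGC was most like those of GCA (0.63) and GTC (0.62), and so was that of GGT (0.67 and 0.65). These correlations were taken over wild-type libraries, and all profiles share those libraries.

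Over all 181 positions, 71 of the 724 glycine values were called in females, which is 9.81% against 8.57% of all 11041 codon and position values, so that the share was near the background. Within 10 codons 12 of 84 were called, or 14.3%, and all 12 were lower in Qtrt1-/- females, where 11.7% of the 1281 values of all codons were called and 7.34% were called lower. GGG gave 5 of them, at positions 0, 1, 3, 4 and 5, and its largest difference was -0.47 ± 0.08 at position 5 (SE, adjusted p = 0.0232, limma). GGC gave 4, at positions -10, -3, 3 and 4, GGT gave 2, at positions 8 and 9, and GGA gave 1, at position 0. Farther out 59 of 640 were called, or 9.22%. No glycine value was called in males, where 0% of all values were, or over both sexes, where 0.0543% were. The female count ranged from 0 to 108 on leaving out 1 animal, and 8 of the 10 animals moved it by more than 1.5 times.

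The mRNA of Ttr, transthyretin, the main secreted protein of choroid plexus, carried from 0.0531% to 5.89% of the footprints. Its share was 0.0531%, 0.113% and 2.46% in wild-type females, 3.76%, 2.93% and 0.915% in Qtrt1-/- females, 5.05% and 5.21% in wild-type males, and 5.89% and 3.50% in Qtrt1-/- males. The 2 lowest shares were both in wild-type females, and each of the 4 males lay above 5 of the 6 females. For GGT at position 3 the mean recomputed ratio was 0.811 in females and 1.5 in males, and without Ttr it was 0.682 and 0.658. For GGC at position -1 it was 0.611 and 0.889, and without Ttr 0.498 and 0.538. For GGA at position 1 it was 3.08 and 3.52, and without Ttr 3.05 and 3.02. These 3 values were chosen after they were seen, and the gap between the sexes narrowed at each of them without this mRNA. The female drop at position 0 was little changed without Ttr, at -0.27 for GGA (adjusted p = 0.0175, limma) and -0.30 for GGG (adjusted p = 0.0252). The part of choroid plexus, striatal or hippocampal field RNA in the other results was not tested.

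**Figure D5:**
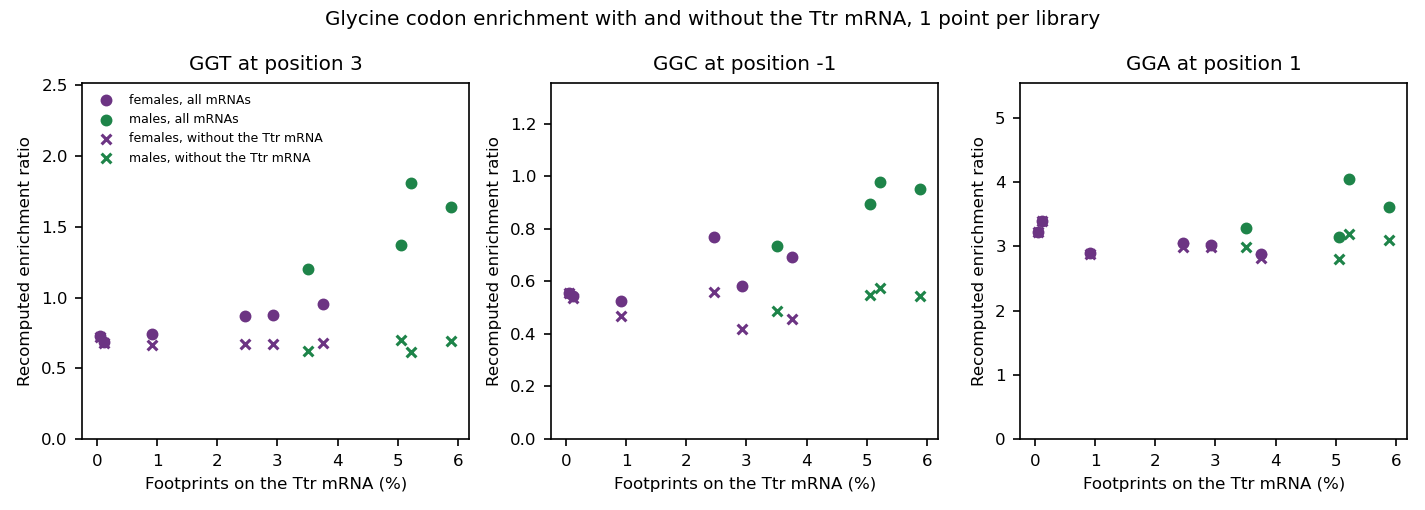
Recomputed enrichment ratio (y axis) against the share of footprints on the Ttr mRNA in percent (x axis), 1 point per library, for GGT at position 3, GGC at position -1 and GGA at position 1, with all mRNAs (dots) and without Ttr (crosses). The male dots lie highest for GGT, with a mean of 1.5, and the male crosses lie close to the female ones, with means of 0.658 and 0.682.

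Taken mRNA by mRNA, footprints with GGA or GGT upstream of the listed codon exceeded the mRNA's own mean in most mRNAs in all libraries. With GGG or GGC upstream this held only in some libraries. Among mRNAs with at least 1 footprint per codon, 507 to 1188 per library, the footprints with GGA upstream exceeded the mRNA's own mean in 63.9% to 77.1% of mRNAs that hold at least 5 such codons. The range was 53.7% to 63.7% for GGT, 44.8% to 67.9% for GGG and 44.5% to 63.0% for GGC. In Qtrt1-/- females it was 44.8%, 47.0% and 45.8% for GGG and 44.5%, 44.6% and 50.1% for GGC. For the listed codon the ranges were 43.0% to 59.5% for GGA, 23.8% to 44.1% for GGG, 20.2% to 27.2% for GGC and 11.4% to 19.9% for GGT. The typical mRNA therefore had GGT, GGC and GGG sites below its mean in all libraries. These shares were not counted for other codons, so it is not known how often a codon of any kind lies below the mean.

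Glycine codons made up 6.51% to 6.58% of the codons in the coding sequences with footprints, and took 8.09%, 8.19% and 7.91% of the footprints in wild-type females. The first share counts each coding sequence once, while the second weights mRNAs by their footprints, so the 2 are not on the same scale. The share of footprints was 6.69%, 6.68% and 6.88% in Qtrt1-/- females, 7.33% and 7.92% in wild-type males, and 7.69% and 6.86% in Qtrt1-/- males. Wild-type and knockout females did not overlap, and males did. How many other amino acids were separated in this way was not counted. By codon, GGA took 3.33%, 3.47% and 3.24% against 2.81%, 2.85% and 2.80% in females, and dropped by 0.25 ± 0.04 on the log2 scale (SE, adjusted p = 0.0126, edgeR quasi-likelihood). GGG took 2.12%, 2.08% and 1.86% against 1.52%, 1.58% and 1.62%, and dropped by 0.36 ± 0.07 (adjusted p = 0.0189). GGC differed by -0.23 (adjusted p = 0.0583) and GGT by -0.08 (adjusted p = 0.469). In females 13.1% of codons were called and 8.2% were called lower. Both calls were lost without wild-type female 1 or 2 or Qtrt1-/- female 1 or 2. In males 0 of 4 were called or passed unadjusted, and over both sexes 0 were called with edgeR (adjusted p = 0.0502 for GGA and GGG, 3 of 4 unadjusted) and 2 with DESeq2, where 0% of codons were called with edgeR. The share uses the same footprints as position 0 and is not a separate measurement of them.

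The mean occupancy of listed sites, which is coverage relative to the site's own mRNA, gave another order of codons. GGA sites had a mean of 18.5 to 28.6 per library and ranked 4th of 61, GGT sites 14.5 to 23.2 (19th), GGG sites 13.6 to 20.7 (24th) and GGC sites 9.98 to 17.7 (54th). No glycine codon was called in any comparison (limma, 0 of 4 unadjusted in females, in males and over both sexes), where 0% of codons were called. A site enters this mean only with at least 1 footprint.

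Sorting the sites by the codon upstream gave 1653 pairs with at least 30 sites in every library. The 190 pairs with glycine upstream had a median mean occupancy of 21.8 and the 134 pairs with glycine listed one of 16.2, against 14.9 for all pairs. Of the 100 highest pairs 38 had glycine upstream, namely 18 with GGA, 15 with GGT, 4 with GGC and 1 with GGG. GGT before GAA (53.9), GGT before AAC (49.5) and GGA before CGA (47.9) ranked 2nd, 3rd and 6th. With glycine listed, the highest were GGT before GGA (35.6, libraries from 22.5 to 42.9), CCT before GGA (35.4, from 29.9 to 46.4) and CCA before GGA (35.2, from 23.3 to 53.0), so that the upstream codon was glycine or proline. Cpe codon 324, printed above, is such a GGT and GGA pair. The lowest were ATC before GGC (5.59), TTG before GGC (6.09) and CTG before GGT (6.49). No pair was called between genotypes in either sex or over both (limma), where 0% of pairs were called.

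At single sites, 1700 glycine sites in 759 mRNAs were listed in all 10 libraries with a mean of at least 10 footprints, out of 24358 sites of all codons and 4147 glycine sites listed in all 10. They were 701 of GGA, 443 of GGC, 385 of GGG and 171 of GGT. The highest relative to their mRNAs, 2 per codon, are shown. They rank by a ratio to the mean of their own mRNA and not by the number of footprints.
Tyro3 codon 18: ctgctggcgGGActggcttct
Ahctf1 codon 726: atgattgatGGAttagtctct
Cltc codon 84: ctgaaagctGGCaaaactctt
Zdhhc13 codon 593: ggctgctttGGCttagtgaag
Rpe codon 40: gtaatggacGGGcattttgtt
Sec23a codon 123: gttctgcgtGGTccccagatg
Capza2 codon 170: ttttggaatGGTcgttggagg
In the same annotation Tyro3 codon 18 lies in exon 1 of 19 (chr2:119799844-119799846, plus strand), Ahctf1 codon 726 in exon 18 of 36 (chr1:179777787-179777789, minus strand) and Cltc codon 84 in exon 3 of 32 (chr11:86733840-86733842, minus strand). Zdhhc13 codon 593 lies in exon 17 of 17 (chr7:48826918-48826920, plus strand), Sec23a codon 123 in exon 5 of 20 (chr12:59002050-59002052, minus strand) and Capza2 codon 170 in exon 7 of 10 (chr6:17660753-17660755, plus strand), and Rpe codon 40 spans the junction of exons 1 and 2 of 6 (chr1:66701027-66706446, plus strand).

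These sites stood far above their mRNA's mean in all libraries. Cltc encodes the clathrin heavy chain, and its codon 84 had an occupancy of 658 to 958 with a median of 873 over the 10 libraries. This site held 18 to 76 footprints a library, in a coding sequence of 1675 codons. Tyro3, a receptor tyrosine kinase, had 203 to 441 at codon 18, close to the start of the coding sequence. Ahctf1, a nucleoporin, had 173 to 318 at codon 726. Sec23a, a coat protein of vesicles leaving the endoplasmic reticulum, had 137 to 348 at codon 123, Zdhhc13, a palmitoyltransferase, 125 to 352 at codon 593, and Capza2, an actin capping protein, 86.8 to 161 at codon 170. Codon 814 of Pcdhgc4, a protocadherin, a GGG site with no sequence printed, had 778 to 924. That site held 6 to 54 footprints a library, in a coding sequence of 941 codons. Rpe, ribulose-5-phosphate epimerase, had 229 at codon 40 in 6 libraries and 172 to 223 in the others, on 3 to 40 footprints a library: in those 6 libraries all footprints of the mRNA lay on that codon. None of these sites was called between genotypes. At the sites of Cltc, Pcdhgc4, Rpe, Sec23a and Capza2 the coding sequence printed or read around the codon crosses an exon junction. At those of Tyro3, Ahctf1 and Zdhhc13 it does not. The Pcdhgc4 values of 778 to 924 were near its number of codons, so most footprints of that mRNA lay on that codon. The part of the junctions in these occupancies was not tested, so they are not shown to be pauses at glycine.

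In females 63 of the 1700 glycine sites were lower and 31 higher in Qtrt1-/- animals, which is 3.71% and 1.82%, against 2.21% lower and 3.9% higher among all 24358 sites (6.11% called in either direction, limma). For GGG 23 of 385 were lower and 4 higher, for GGA 24 and 16 of 701, for GGC 16 and 6 of 443, and for GGT 0 and 5 of 171. The median log2 difference was -0.40 over GGG sites, -0.16 over glycine sites and 0.06 over all sites, and 0.14 over GGT sites. Only sites listed in all libraries entered these counts, and with sites of a mean of at least 5 footprints in the test the 94 female calls fell to 1. No glycine site was called in males, where 78 passed unadjusted, or over both sexes, where 363 did, and 0% of all sites were called in each. The female count ranged from 0 to 147 on leaving out 1 animal and moved by more than 1.5 times for each animal but Qtrt1-/- female 3 and both Qtrt1-/- males.

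Of the 3 glycine sites with the lowest p over both sexes, 2 are given as values, each with an adjusted p of 0.0579 (limma).
Htatsf1 codon 349: gcctgggatGGGactacagat
Nceh1 codon 353: cgggacgatGGGatcatgtac
Htatsf1 encodes a splicing-associated factor, and its GGG site lies in exon 9 of 10 (chrX:57065126-57065128, plus strand). Its occupancy was 21.8, 26.2 and 21.7 in wild-type females, 9.49, 5.54 and 7.90 in Qtrt1-/- females, 10.9 and 8.74 in wild-type males, and 2.68 and 4.36 in Qtrt1-/- males. The knockout libraries lay below the wild-type ones in both sexes, on 2 to 23 footprints a library (log2 difference -1.57 ± 0.27, SE). Nceh1 encodes a neutral cholesterol ester hydrolase, and its GGG site lies in exon 5 of 5 (chr3:27241651-27241653, plus strand). Its occupancy was 4.55, 4.94 and 4.24, then 1.15, 0.463 and 0.938, then 3.98 and 3.95, then 2.09 and 2.28, in the same order of groups, with the knockout libraries below in both sexes (-1.69 ± 0.31). Both sites have GAT, an aspartate codon, directly upstream. Of the 7 pairs with aspartate before glycine 7 were lower in Qtrt1-/- females (median log2 difference -0.36) and 2 in males, with none called. The other 3 queuosine families did not share this. In females 4 of 7 pairs with asparagine upstream were lower (median -0.086), 2 of 6 with tyrosine (0.066) and 1 of 2 with histidine (0.14). Of all 134 pairs with glycine listed 72 were lower in females. The part of the upstream codon in these 2 sites was not tested. At Cpe codon 324 the occupancy was 32.3, 36.3 and 34.4 in wild-type females and 10.9, 17.2 and 20.2 in Qtrt1-/- females (log2 difference -1.14, adjusted p = 0.0544, limma), while at Cpe codon 396 of the same mRNA the female difference was 0.23 (adjusted p = 0.582).

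The 16 genes of the decoding list were glycyl-tRNA synthetase (Gars), the enzymes of the wobble uridine (among them Alkbh8 and its partner Trmt112), eIF5A with its hypusine enzymes, and elongation factors. All 16 were tested among 13143 genes in footprint counts, and in females 2 were lower and 0 higher, where 7.06% of all genes were called (edgeR quasi-likelihood). Eef1a2 stood at 2527, 2129 and 2589 CPM in the wild type and 1656, 1609 and 1926 in the knockout females, and dropped by 0.48 ± 0.12 on the log2 scale (SE, adjusted p = 0.0327). Eef2, the factor that moves the ribosome by 1 codon, had 1154, 1118 and 1202 against 862, 859 and 977, and dropped by 0.37 ± 0.09 (adjusted p = 0.0337). The genotypes did not overlap for either gene, and how many of all genes were separated in this way was not counted. Alkbh8 differed by 0.43 (adjusted p = 0.0914), Gars by -0.06 (0.700) and Eif5a by 0.02 (0.946). The median of the list was -0.05 against 0.00 for all genes. The count ranged from 0 to 4 on leaving out 1 animal, and it changed by more than 1.5 times without wild-type female 1 or 3, Qtrt1-/- female 1 or 2, or wild-type male 2. In males 0 of 16 were called (1 unadjusted) and over both sexes 0 (4 unadjusted with edgeR, and 2 called with DESeq2), where 0% and 0.00761% of genes were called.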

How the data were processed

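Per the labels' protocols, hippocampi were lysed with cycloheximide, digested with RNase I and made into small-RNA libraries; per the submitters' processing notes, cutadapt 1.8.1, Trimmomatic 0.39, Bowtie 1.0.0 and 1.2.2 and SAMtools 0.1.19 were used, while no source used here gives the build, annotation or counter. The deposited site tables list footprint counts per codon (from codon position 15, codons with 0 not listed), the percent of the coding sequence covered and the occupancy ratio, per the file headers. The deposited enrichment tables hold a ratio per codon and position, and the deposited gene table holds raw counts; 0 columns belonged to no sample. Upstream codons, exons and windows were read from GENCODE M21 (GRCm38), where at least 99.7% of listed codons matched.

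Ratios were tested as log2 with limma 3.58.1 on 61 codons, 87 synonymous pairs, 11041 codon and position values, pairs with at least 30 sites in every library, or sites with a mean of at least 10 footprints. Summed footprints and genes were tested with edgeR 4.0.16, and with DESeq2 1.42.0 as an alternative. All 10 footprint libraries entered each fit as 4 groups of sex and genotype, with contrasts within females, within males, over both and between sexes; p-values were adjusted by Benjamini-Hochberg over the whole table, with a threshold of 0.05. The fits were tested on simulated data. Named sites were, per codon, the 2 with the highest geometric mean occupancy, and the 3 with the lowest p over both sexes since none passed (1 of them is not reported here); named pairs the 3 highest and 3 lowest; named list genes those past the test and Gars, Eif5a and Alkbh8. Members and lists were chosen with earlier results of these data known. The within-library SD tables were not used, and depth (median 2 footprints a site) limits single sites most.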

Additional observations from a re-analysis of the deposited data

How the results depend on the processing

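Calls rest on 3 females or 2 males a group, and the male contrast has the wider intervals. Leaving out 1 animal gave 0 to 3 glycine codons called at position 1 in females, 0 to 1 in males and 0 to 4 over both sexes; 0 to 3 at position 0 in females and over both; 0 to 2 pairs in females at either position; 0 to 108 values over all positions in females, 0 to 1 in males and 0 to 53 over both; 0 to 3 codons by share in females and over both; 0 to 3 by mean occupancy in males and 0 to 2 over both; 0 to 147 single sites in females, 0 to 1 in males and 0 to 65 over both; and 0 to 4 list genes in females and 0 to 3 over both. The calls in males and over both sexes that were absent with all animals came without wild-type male 1 (position 1, all positions, share, single sites and list genes), wild-type male 2 (mean occupancy), Qtrt1-/- male 1 (all positions, share and single sites), Qtrt1-/- female 3 (all positions), wild-type female 3 (share) or wild-type female 2 (list genes). Male differences changed sign on leaving out 1 animal: at position 1 GGA ran from -0.23 to 0.13, GGC from -0.30 to 0.095, GGG from -0.19 to 0.10 and GGT from -0.14 to 0.086, and at position 0 GGC from -0.12 to 0.053; so did the female GGA and GGG pair at position 0, from -0.0038 to 0.046.

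Equal replicate numbers did not pair the animals (correlations of deviations from -0.58 to 0.09 at position 1). With the replicate block the calls fell to 0 for position 0 in females and over both sexes, all positions, share, single sites and list genes in females, and the pair at position 1. Position 1 in females gave 1 call on the ratio without the log, 3 with each sex fitted alone, 1 without the 20 mRNAs with most footprints and 1 with mRNAs weighted equally. Position 0 over both sexes gave 0 after centring each library, 0 for codon positions above 100, 1 with mRNAs weighted equally and 0 after adjusting for G and C bases, which left 1 in females. GGA at position 1 in males was 0.026 without Ttr, 0.047 without the 20 mRNAs and 0.058 with equal weights. Adjusting for G and C bases gave 0.0066 for GGC and 0.063 for GGG at position 1 in males, and at position 0 0.020 for GGC in females, 0.062 in males and 0.041 over both, and 0.00054 for GGG in males. Taking pair differences without the log gave 0 calls at position 1 in females, with -0.0058 for GGA and GGC and -0.030 for GGA and GGT, and 3 at position 0, with -0.11 for GGA and GGG. The share over both sexes gave 2 calls with DESeq2, 2 for sites with at least 2 footprints and 3 for codon positions above 100. Single sites gave 1 call in females at a mean of at least 5 footprints and 38 over both sexes at 20. List genes over both sexes gave 2 with DESeq2 and 1 without the filter on low counts. The cause of these changes was not tested. The alternatives that leave out mRNAs, weight them equally, keep codon positions above 100 in the enrichment or adjust for G and C bases were chosen after seeing the data.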
